A study of Mus musculus with 12 samples.

Results

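UDP-glucuronosyltransferases (UGTs) and sulfotransferases (SULTs) were examined in liver messenger RNA sequencing of mice treated with an inhibitor of miR-29. The genes were chosen by a rule on the symbol, set with earlier results of these data known. The rule took every gene of the deposited table whose symbol starts with Ugt1a, Ugt2a, Ugt2b or Ugt3a, or with Sult and a digit. This gave 37 of 21705 genes, 19 of them UGT genes (7 Ugt1a, 3 Ugt2a, 7 Ugt2b and 2 Ugt3a) and 18 SULT genes (6 Sult1, 8 Sult2, and 1 each of Sult3, Sult4, Sult5 and Sult6). Livers of 6 saline-treated and 6 LNA29-treated mice were compared. All 12 animals were C57BL/6J females of 10 to 12 weeks, and each treated animal received LNA29, that is 2 separate locked nucleic acids (LNAs, chemically stabilised antisense oligonucleotides) given together, one against miR-29a and one against miR-29b and miR-29c, at 20 mg/kg each, into a vein. Livers were taken on day 7 after an 18 h fast. The controls received saline and no other oligonucleotide, so that the loss of miR-29 activity and any other response to an oligonucleotide cannot be told apart here. The RNA came from whole liver, where fewer cells of a type and less RNA per cell cannot be told apart.

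Both enzyme groups make foreign compounds and hormones more water soluble so that they can leave in bile or urine. UGTs sit in the endoplasmic reticulum and transfer glucuronic acid from UDP-glucuronic acid, and SULTs work in the cytosol and transfer sulfate from the donor PAPS. The Ugt1a genes share a single locus in which each gene has its own first exon and all use the same later exons. Ugt2a1 and Ugt2a2 also overlap, on the same strand of chromosome 5, and share most of their transcript sequence. The Ugt2a3, Ugt2b, Ugt3a and Sult genes are separate genes, many of them in clusters of close copies. Several SULT genes of mouse liver, among them Sult2a and Sult3a genes, are known to be expressed more in females than in males.

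The values are reads assigned to each gene, scaled by the authors in each liver to an upper quartile of 1000 over genes that had reads, and genes lacking reads are listed at 1. Total reads ranged from 7696097 to 19062448 per liver, and 1 read was worth between 9.80 and 24.4 in this unit, so that values under 100 rest on a few reads. Albumin, the main plasma protein made by hepatocytes, took between 35.7% and 46.9% of the reads, and of the kidney and intestine markers Umod, Slc12a1 and Cdx1 had no reads and Vil1 reached at most 10.1 in any liver. Of 12486 genes tested with limma on log2(value + 1), 20 had an adjusted p under 0.05 (0.160%), and this count was 1 without saline replicate 43 and likewise without LNA29 replicate 50 or 54. At an unadjusted p under 0.05, 243 genes were higher in LNA29 livers (1.95%) and 745 were lower (5.97%). The median log2 fold change over the tested genes was -0.09. Of the 22 members with a mean of at least 100, LNA29 replicate 48 was the lowest of its group for 10 and the highest for 4, saline replicate 47 the lowest for 9 and the highest for 5, and LNA29 replicate 44 the highest for 9 and the lowest for none. The total of 9015642 reads and the albumin share of 44.5% of LNA29 replicate 48 were within the range of the other livers.

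The inhibitor targets 3 mature microRNAs whose sequences, from RefSeq (GRCm38.p6), are shown because their seed, bases 2 to 8 in capitals, decides which messenger RNAs they can pair with. All 3 share the same seed.

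mmu-miR-29a-3p: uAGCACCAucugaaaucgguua

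mmu-miR-29b-3p: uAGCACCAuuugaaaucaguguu

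mmu-miR-29c-3p: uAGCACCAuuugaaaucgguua

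The complement of this seed, TGGTGCT, was looked for on the transcript strand in the longest protein-coding 3′ UTR of each gene (GENCODE M21, GRCm38). It was found in 1 of the 37 members, Sult2a6, and in 2673 of the 19608 genes of the table with a 3′ UTR (13.6%). The members have short 3′ UTRs, with a median of 547 bases against 1014 bases over all genes, and among the 16816 genes whose 3′ UTR is no longer than the longest of a member, 9.75% hold the letters. The window below, from the 3′ UTR in exon 3 of the Sult2a6 transcript (GRCm38, chr7:14236613-14236642, minus strand), shows the match in capitals.

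Sult2a6: gaacaacttctTGGTGCTgtactatgaaga

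This 3′ UTR belongs to another transcript of Sult2a6 than the transcript of 961 bases used for its length. Where the letters fall in that one was not examined, and they may not be in its 3′ UTR. Sult2a6 was listed at 1, that is without reads, in all 12 livers. No member with reads in any liver had the letters in this part of its transcript.

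The structure of the Ugt1a locus matters for how its reads can be assigned. In each line below, the lower-case letters are the last 30 bases of the first exon of that gene and the capitals are the first 30 bases of the shared exon 2 (GRCm38, chr1:88215044-88215175, plus strand, all coding).

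Ugt1a1: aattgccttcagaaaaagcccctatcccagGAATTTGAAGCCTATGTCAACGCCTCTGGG

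Ugt1a2: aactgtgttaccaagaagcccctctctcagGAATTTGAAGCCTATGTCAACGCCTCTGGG

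Ugt1a5: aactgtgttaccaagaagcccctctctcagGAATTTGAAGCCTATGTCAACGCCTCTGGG

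Ugt1a6a: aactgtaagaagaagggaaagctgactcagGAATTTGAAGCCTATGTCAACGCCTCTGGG

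Ugt1a7c: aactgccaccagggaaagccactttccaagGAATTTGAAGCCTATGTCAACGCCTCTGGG

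Ugt1a9: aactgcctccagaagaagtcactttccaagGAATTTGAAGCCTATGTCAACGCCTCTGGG

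Ugt1a10: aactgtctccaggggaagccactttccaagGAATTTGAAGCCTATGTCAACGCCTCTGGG

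Exons 2 to 4 are the same in the 7 genes, and exon 5 starts at the same base and differs only in where it ends. The first 1311 bases after exon 1 are therefore shared, so that a read from them does not tell the genes apart, and the annotated exon 5 goes on for another 7 bases in Ugt1a10 and 1005 in Ugt1a7c. Between 39.5% (Ugt1a7c) and 97.7% (Ugt1a6a) of the stretches of 100 bases in a transcript were also found in another annotated gene. Within the first exons, 17 of the 793 stretches of Ugt1a5 were also in Ugt1a2 (2.14%), and the letters shown above are the same in both. The first exons of the other 5 genes shared none with each other. Of the 2166 stretches of the Ugt1a6a transcript, however, 2116 were also in another annotated gene, more than its shared later exons can account for. Reads of its first exon therefore need not come from Ugt1a6a alone. The program used by the authors, RSEM, divides such reads between genes in fractions. The deposited values of 5 of the Ugt1a genes were fractions of a read in at least 10 of the 12 livers, while the sum of the 7 genes was whole (within 0.02 of a read) in all 12 livers.

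The livers expressed a limited part of both families. Of the 37 members, 5 were listed at 1 in every liver: Ugt2a1 and Ugt2a2, known from olfactory epithelium, Sult1c1, Sult2a6, and the cholesterol sulfotransferase Sult2b1. Another 4 had reads but fell under the mean of 10 needed for testing, each with at most 3 reads in any liver: Ugt2b38, Sult2a4, Sult6b1 and Sult4a1, a SULT known from brain. The other 28, 16 UGT and 12 SULT genes, were tested. Their levels per kb of transcript, the scale on which genes can be compared, differed widely. Ugt1a1, the bilirubin UGT, had the highest mean at 20694 per kb in saline and 15665 in LNA29 livers. Sult2a2, Sult2a1, Sult1a1 and Ugt3a2 followed, with saline means of 12542, 10996, 9568 and 5909 per kb and LNA29 means of 8543, 5969, 9735 and 5946 per kb. This order is that of the saline means, and in LNA29 livers Sult1a1 came before Sult2a2 and Sult2a1. It also rests on the annotated lengths, 741 bases for Sult2a2 and 1020 for Sult2a1. Before division by length, Sult2a2 had the lower saline mean, 9294 against 11216 for Sult2a1. Single livers of the 3 SULT genes overlapped in this order.

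**Figure D1:**
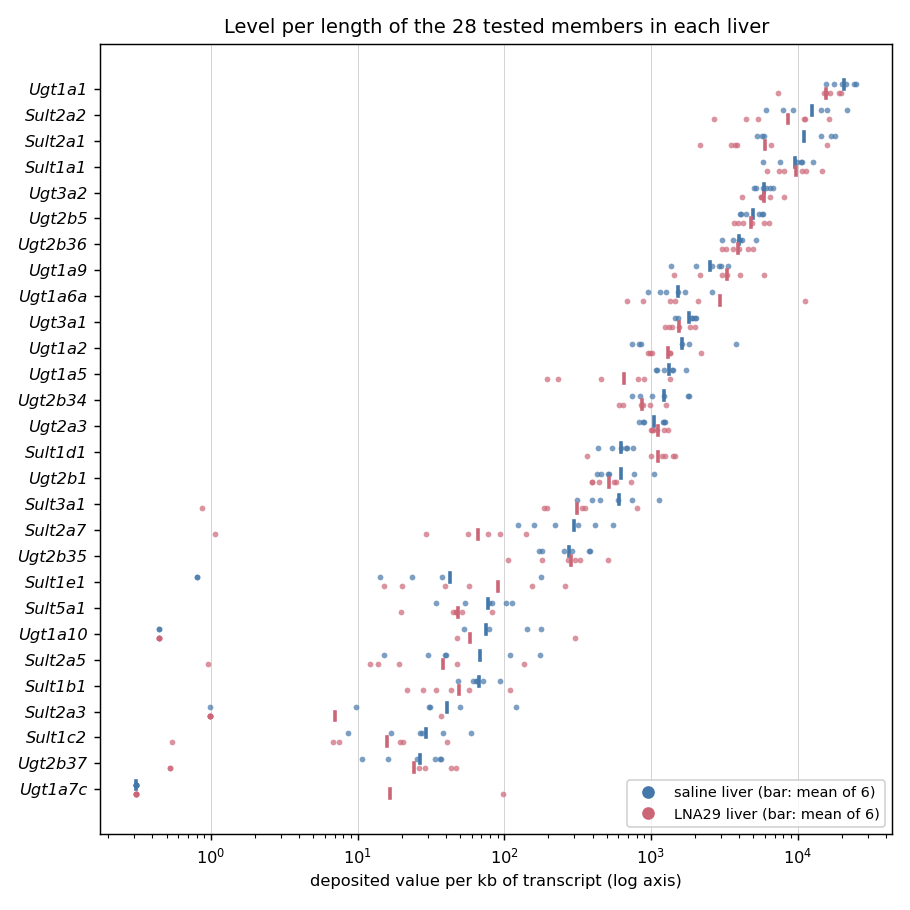
Deposited values per kb of transcript (horizontal log axis) of the 28 tested UGT and SULT genes in each of 6 saline (blue) and 6 LNA29 (red) livers, with the mean of each group as a bar. Ugt1a1 is at the top with means of 20694 and 15665 per kb, and points around 1 per kb or below are livers in which the gene was listed at 1, that is without reads.

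None of the 28 tested members had an adjusted p under 0.05 in limma, against 20 of all 12486 tested genes (0.160%), and the smallest adjusted p was 0.237. At an unadjusted p under 0.05, 1 member was higher in LNA29 livers, Sult1d1 (3.57% of the 28, with 1.95% of all genes higher), and 4 were lower, Ugt1a5, Sult2a1, Sult2a3 and Sult2a7 (14.3%, with 5.97% of all genes lower). Leaving out single livers moved the lower count to 2 without saline replicate 51, to 7 without LNA29 replicate 48 and to 8 without LNA29 replicate 44, and the higher count to 2 without saline replicate 45 and to 3 without LNA29 replicate 48. Of all tested genes, 4.76% were lower without saline replicate 51, 6.01% without LNA29 replicate 48 and 7.33% without LNA29 replicate 44. Higher were 1.96% without saline replicate 45 and 2.27% without LNA29 replicate 48. The fold changes were below 0 for 21 of the 28 members (75%) and for 61.4% of all tested genes, and their median was -0.33 against -0.09. This median was also -0.33 with Ugt1a7c, which had no reads in any saline liver, set to the lower bound against 3 reads per liver. No member had groups that did not overlap, which 0.985% of all tested genes had. With the thresholds of the study (group means 1.5-fold apart or more, one-tailed p of at most 0.05 without adjustment), 4 of the 37 members were selected, Sult1d1 higher and Sult2a7, Sult5a1 and Ugt1a5 lower, as were 5.84% of the 15122 genes with a p. The spread was unequal: 12 members, 11 UGTs and Sult1a1, had 95% intervals that lay between -1 and 1 on the log2 scale.

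**Figure D2:**
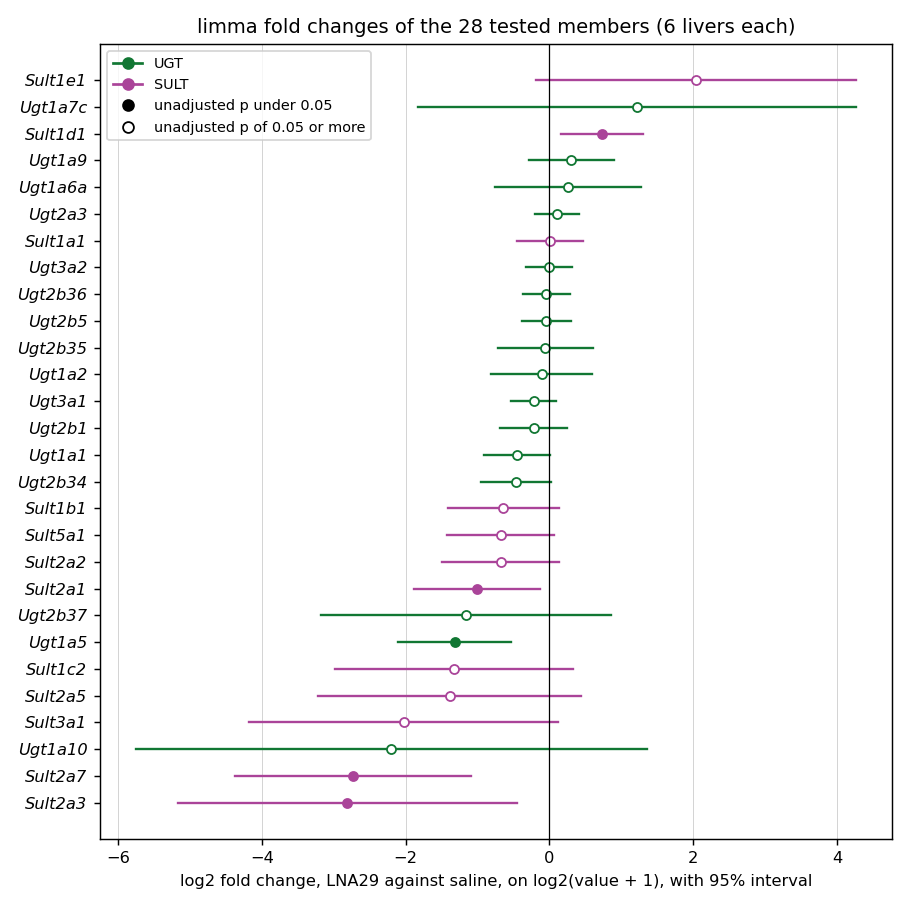
Log2 fold changes of LNA29 against saline livers (horizontal axis, log2(value + 1) scale) with 95% intervals from limma for the 28 tested members, UGT genes in green and SULT genes in purple. Filled points are the 5 members with an unadjusted p under 0.05: Sult1d1 at 0.73 on the higher side, and Sult2a1, Ugt1a5, Sult2a7 and Sult2a3 between -1.01 and -2.81 on the lower side. The point of Ugt1a7c has no firm size, since no saline liver had a read.

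The Ugt1a locus as a whole varied little between livers, and its genes took unequal parts of it. The sum of the 7 genes was 54222 to 72273 in saline livers (median 60223) and 47924 to 62609.8 in LNA29 livers (median 50996), with 4 LNA29 livers under all saline livers. Its log2 fold change was -0.21 (SE 0.15, unadjusted limma p = 0.176, adjusted p = 0.795, exact permutation p = 0.0498), and its coefficients of variation were 11.76% in saline and 10.99% in LNA29 livers. The test of the sum was added after the data were seen. Ugt1a1, which conjugates bilirubin, had values of 34982 to 55977 in saline livers (median 46207.5) and 16462 to 44146 in LNA29 livers (median 36031). All 6 LNA29 livers lay below the saline median and 3 of them below all saline livers, and the log2 fold change was -0.45 (SE 0.22, unadjusted limma p = 0.0543, adjusted p = 0.638, exact permutation p = 0.0498). The limma and the permutation test were on different sides of 0.05 for both the sum and Ugt1a1. LNA29 replicate 48 had the lowest Ugt1a1 value, and without it the fold change was -0.25 (limma adjusted p = 0.739, range over the alternatives 0.337 to 0.85).

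LNA29 replicate 48 differed from the other livers in which Ugt1a gene its reads were assigned to. Nearly all of the Ugt1a6a stretches of 100 bases (97.7%) are also in another annotated gene, and which gene its reads came from was not tested. Ugt1a6a, which conjugates small planar phenols, had values of 2153 to 5867 in saline livers (median 3179.7) and 1544 to 25515 in LNA29 livers (median 3177). The highest value belonged to LNA29 replicate 48, and the other 5 LNA29 livers reached at most 4707, within or below the saline range. In that liver Ugt1a6a took 49.9% of the Ugt1a sum and Ugt1a1 32.2%, where the other 11 livers had Ugt1a6a at 3.15% to 10.7% and Ugt1a1 at 63.6% to 78.4%, and its Ugt1a sum of 51170 was within the range of its group. The log2 fold change of Ugt1a6a was 0.26 (SE 0.48, unadjusted limma p = 0.597, adjusted p = 0.94, exact permutation p = 0.792), and it was -0.28 without LNA29 replicate 48. Across the 12 livers the log2 values of Ugt1a1 and Ugt1a6a had Pearson's r = -0.797 (permutation p = 0.0202, adjusted over the 2 gene pairs examined 0.0202) and Spearman's rho = -0.455 (permutation p = 0.142, adjusted 0.142). This correlation was not among the planned tests, and the adjustment does not cover gene pairs that were not examined. The 2 genes share all exons after the first, so part of their reads was divided by RSEM. The part of this in the correlation was not tested. Without the 2 livers farthest from the median of Ugt1a1, r was -0.202, so its size over the 12 livers depended on those livers. Within saline livers r was -0.627 and within LNA29 livers -0.907.

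**Figure D3:**
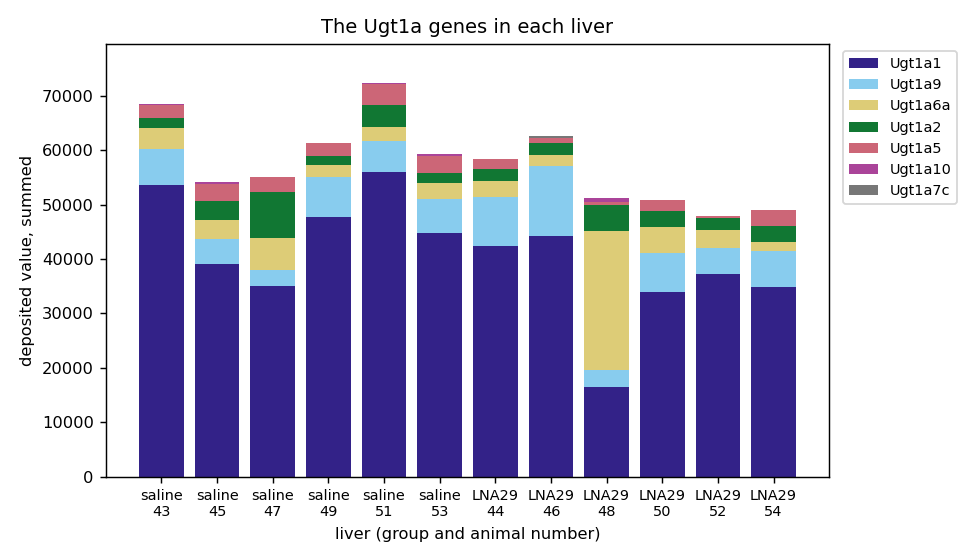
Deposited values of the 7 Ugt1a genes, stacked, for each of the 12 livers (vertical axis from 0, group and animal number below). The sums lie between 47924 and 72273, Ugt1a1 (dark blue) makes up most of each bar but that of LNA29 replicate 48, and there Ugt1a6a (yellow) is the largest part.

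Ugt1a5 was the Ugt1a gene with the smallest p. Its values were 2385 to 3795 in saline livers (median 2898) and 432 to 2970.1 in LNA29 livers (median 1400.3). The LNA29 livers were spread widely, 5 of them below all saline livers and LNA29 replicate 54 among the saline livers. The log2 fold change was -1.32 (SE 0.37, unadjusted limma p = 0.00246, adjusted p = 0.237, exact permutation p = 0.0108), a ratio of means of 0.497, with the range -1.59 to -1.04 when single livers were left out. Over the alternatives Ugt1a5 had a limma adjusted p of 0.0676 to 0.494. Its part of the Ugt1a sum was 3.49% to 5.76% in saline livers and 0.902% to 6.07% in LNA29 livers (exact permutation p = 0.0563). These values depend on how reads were divided among the 7 genes, and that part was not tested.

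The remaining Ugt1a genes had intervals that reached from lower to higher values. Ugt1a9, which also conjugates phenols, had values of 3022 to 7315 in saline livers (median 6012) and 3158 to 13004 in LNA29 livers (median 6961). LNA29 replicates 44 and 46 were above all saline livers and the other 4 were inside the saline range, with a log2 fold change of 0.30 (95% interval -0.29 to 0.90, limma adjusted p = 0.864). It was 0.11 without LNA29 replicate 46, 0.14 without saline replicate 47, 0.52 without LNA29 replicate 48 (limma adjusted p = 0.603), and -0.06 with values beyond 1.5 SD left out. Ugt1a2 had values of 1651 to 8454 in saline livers (median 2740.2) and 2125 to 4841 in LNA29 livers (median 2604), groups that overlapped throughout, and a log2 fold change of -0.11 (95% interval -0.81 to 0.59). Ugt1a10 had no reads in 2 saline and 4 LNA29 livers, with its highest value of 680 in LNA29 replicate 48 and a highest saline value of 399. Its log2 fold change of -2.20 (SE 1.69, unadjusted limma p = 0.209, adjusted p = 0.808, exact permutation p = 0.405) rests on which livers were listed at 1. Ugt1a7c had reads in LNA29 replicate 46 alone, 13 reads for a value of 317, and no fold change is given for it.

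The Ugt2 genes, which conjugate steroids, bile acids and drugs, lie on chromosome 5. The sum of the 7 Ugt2b genes was 20722.5 to 32362 in saline livers (median 23867) and 18449 to 29587 in LNA29 livers (median 21576), with a log2 fold change of -0.14 (95% interval -0.46 to 0.18, limma adjusted p = 0.887). Ugt2b5 had values of 7576 to 10843 in saline livers (median 9156) and 6887 to 11793 in LNA29 livers (median 8429), and the LNA29 livers reached beyond the saline range at both ends. Its log2 fold change was -0.04 (95% interval -0.38 to 0.29, limma adjusted p = 0.976). Ugt2b36 had values of 5794 to 9766 in saline livers (median 7593) and 5718 to 9302 in LNA29 livers (median 7181), overlapping groups and a log2 fold change of -0.04 (95% interval -0.37 to 0.28, limma adjusted p = 0.976). For both genes the sign turned when livers were set to a common median or scaled by TMM factors.

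Ugt2b34 had the smallest p of the Ugt2 genes. Its values were 3181 to 7783 in saline livers (median 4851) and 2600.2 to 5449.9 in LNA29 livers (median 3748), with 5 of 6 LNA29 livers below the saline median and 2 below all saline livers. The log2 fold change was -0.46 (SE 0.23, unadjusted limma p = 0.0623, adjusted p = 0.661, exact permutation p = 0.126), and 3 of the 12 fits that left out a liver gave an unadjusted p under 0.05. Ugt2a3 had values of 1766 to 2623 in saline livers (median 2232) and 2117 to 2788 in LNA29 livers (median 2262), nearly the same range in both groups, and a log2 fold change of 0.10 (95% interval -0.21 to 0.41, limma adjusted p = 0.924). Ugt2b1 and Ugt2b35 had log2 fold changes of -0.22 and -0.06, with 95% intervals of -0.69 to 0.25 and -0.72 to 0.61. Ugt2b37 had at most 7.13 reads in any liver, and Ugt2b5 shared 24.7% of its stretches of 100 bases with other genes, mostly Ugt2b38, which had almost no reads.

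The Ugt3a genes on chromosome 15 encode enzymes that use other UDP sugars than UDP-glucuronic acid. Ugt3a2 had values of 11807 to 15861 in saline livers (median 13858) and 9717 to 18746 in LNA29 livers (median 13231), and its coefficient of variation in saline livers, 11.5%, was the lowest of the members with reads in every liver. The groups overlapped at both ends, and the log2 fold change was -0.01 (95% interval -0.33 to 0.31, limma adjusted p = 0.992), with a sign that turned under both other scalings. Ugt3a1 had values of 3298 to 4576 in saline livers (median 4262) and 2808 to 4467 in LNA29 livers (median 3311), with 5 LNA29 livers below the saline median, and a log2 fold change of -0.22 (95% interval -0.53 to 0.09, limma adjusted p = 0.784).

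The Sult1 genes conjugate phenols, hormones and catecholamines. Sult1a1, the main phenol sulfotransferase, had values of 7950 to 17500 in saline livers (median 14022) and 8536 to 20024 in LNA29 livers (median 12880.2), and the livers of the groups were interleaved. Its log2 fold change was 0.01 (95% interval -0.45 to 0.47, limma adjusted p = 0.993), and its sign turned in several alternative fits. Sult1d1, known to act on catecholamines, had values of 1053 to 1840 in saline livers (median 1580.1) and 887 to 3521 in LNA29 livers (median 2931). Of the LNA29 livers, 5 were above all saline livers, and LNA29 replicate 48 was below all of them. The ratio of means was 1.79, and the log2 fold change was 0.73 (SE 0.27, unadjusted limma p = 0.015, adjusted p = 0.455, exact permutation p = 0.0519). Without LNA29 replicate 48 it was 1.03 (limma adjusted p = 0.0194), and the adjusted p ranged from 0.00749 to 0.709 over the alternatives. Sult1d1 shared no stretch of 100 bases with another gene, and its values were whole numbers of reads (47 to 257) in all 12 livers.

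Sult1d1 (GRCm38, chr5:87554645-87569027) lies between Sult1b1 (chr5:87513339-87538195) and Sult1e1 (chr5:87575969-87591594), all on the minus strand. Sult1b1, which acts on phenols and thyroid hormones, had values of 127 to 246 in saline livers (median 169) and 56.6 to 288 in LNA29 livers (median 101), with 4 LNA29 livers under all saline livers and LNA29 replicate 54 over all of them, and a log2 fold change of -0.64 (95% interval -1.42 to 0.13, limma adjusted p = 0.726). Sult1e1, the estrogen sulfotransferase, was low, with values of 1 to 222 in saline livers (median 23.5) and 18.9 to 321 in LNA29 livers (median 60.1) and at most 17 reads. It had no reads in 2 saline livers, 5 LNA29 livers were above the saline median, and the log2 fold change of 2.04 (SE 1.06, unadjusted limma p = 0.0699, adjusted p = 0.682, exact permutation p = 0.147) depends on the pseudocount: it was 1.26 with a pseudocount of 10. The fold changes of the 3 neighbours had different signs, and none passed the adjusted threshold. Sult1c2 had at most 11 reads in any liver and a log2 fold change of -1.33 (95% interval -2.99 to 0.32).

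The Sult2a genes, which sulfate bile acids and steroids such as dehydroepiandrosterone, form a cluster on chromosome 7, and Sult3a1, on chromosome 10, is described with them. All 6 tested members of Sult2a and Sult3a had fold changes below 0, with a median of -1.71 (range -2.81 to -0.68), beside -0.09 over all genes, of which 61.4% were below 0. The size of this median depends on livers listed at 1. With a pseudocount of 10 the fold changes of the 6 ranged from -2.21 to -0.68. Sult2a8 and Sult3a2, listed under older symbols, are not among the 6. Their log2 fold changes were -0.80 and 0.66, the latter at few reads. Sult2a3 and Sult2a5 had few reads, and Sult2a1, Sult2a2 and Sult2a5 share sequence, so the 6 are not separate measures. Of these 6, 3 had an unadjusted p under 0.05 (50%, with 5.97% of all genes lower) and none an adjusted one, and 1 of the 3, Sult2a1, was no longer under 0.05 in 5 of the 12 fits that left out a liver. The sum of the Sult2a genes was 10079.9 to 34789.6 in saline livers (median 19479) and 4268 to 28561 in LNA29 livers (median 9882). Like that of Ugt1a, the sum was whole in all 12 livers. Its log2 fold change was -0.85 (SE 0.39, unadjusted limma p = 0.0448, adjusted p = 0.62, exact permutation p = 0.11), and it ranged from -1.14 to -0.59 (unadjusted limma p from 0.00503 to 0.131) when single livers were left out. The test of the sum was added after the data were seen.

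Sult2a1 and Sult2a2 made up nearly all of this sum. Sult2a1 had values of 5411 to 18273 in saline livers (median 10327) and 2216 to 16226 in LNA29 livers (median 3877). Among saline livers replicates 45, 47 and 51 had 14666 to 18273 and the other 3 had 5411 to 5987, whereas 4 LNA29 livers were under all saline livers and LNA29 replicate 46 was among the high saline livers. The log2 fold change was -1.01 (SE 0.42, unadjusted limma p = 0.0266, adjusted p = 0.528, exact permutation p = 0.0844). It was -1.36 without LNA29 replicate 46 (limma adjusted p = 0.238, range over the alternatives 0.0891 to 0.791), and between -0.92 and -0.78 without saline replicate 45, 47 or 51 or LNA29 replicate 50 or 54, the 5 fits with an unadjusted p over 0.05. Sult2a2 had values of 4478 to 15999 in saline livers (median 8829.8) and 1998 to 12212 in LNA29 livers (median 6109.8), with 3 LNA29 livers under all saline livers. Its highest livers were saline replicate 47, LNA29 replicate 46 and saline replicates 45 and 51, and the log2 fold change was -0.68 (SE 0.39, unadjusted limma p = 0.0965, adjusted p = 0.726, exact permutation p = 0.195). It was -0.40 without LNA29 replicate 50 and -0.92 without LNA29 replicate 46, and the limma adjusted p ranged from 0.25 to 0.907 over the alternatives.

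The livers with high Sult2a1 were those with high Sult2a2. Over the 12 livers the log2 values had Pearson's r = 0.898 (permutation p = 9e-05, adjusted 0.00018) and Spearman's rho = 0.874 (permutation p = 0.00043, adjusted 0.00086), with r = 0.953 within saline and 0.844 within LNA29 livers, and 0.855 without the 2 livers farthest from the median of Sult2a1. This correlation was not among the planned tests either. Sult2a1 and Sult2a2 shared 11.4% and 34.6% of their stretches of 100 bases with other genes, so part of their reads was divided by RSEM, and the part of this in the correlation was not tested. The coefficients of variation within saline livers were 54.4% for Sult2a1 and 46.5% for Sult2a2, beside 17.7% for Ugt1a1.

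**Figure D4:**
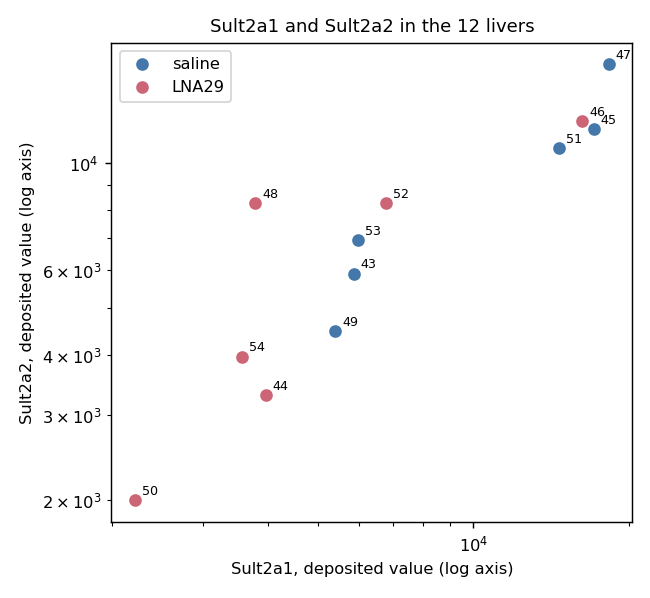
Deposited values of Sult2a1 (horizontal log axis) and Sult2a2 (vertical log axis) in 6 saline (blue) and 6 LNA29 (red) livers, labelled by animal. Saline replicates 45, 47 and 51 and LNA29 replicate 46 form the upper right, and LNA29 replicate 50 is lowest for both at 2216 and 1998.

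Sult2a7 had the lowest ratio of means, 0.222, of the members with a mean of at least 100. Its values were 118 to 516 in saline livers (median 256) and 1 to 132 in LNA29 livers (median 63.4). All 6 LNA29 livers were below the saline median and 5 below all saline livers, with LNA29 replicate 52 inside the saline range and LNA29 replicate 48 without reads. The reads were few, 12 to 39 in saline and 0 to 7 in LNA29 livers, and no stretch of 100 bases was shared with another gene. The log2 fold change was -2.73 (SE 0.78, unadjusted limma p = 0.00266, adjusted p = 0.237, exact permutation p = 0.00433). It was -2.21 with a pseudocount of 10 and -1.89 without LNA29 replicate 48, and the unadjusted limma p stayed under 0.05 in the 12 fits that left out a liver. Over the alternatives Sult2a7 had a limma adjusted p of 0.0959 to 0.508. Sult2a3 had reads in 5 saline livers and in LNA29 replicate 52 alone, at most 7 in any liver, with a log2 fold change of -2.81 (SE 1.12, unadjusted limma p = 0.022, adjusted p = 0.498, exact permutation p = 0.0541) that was -1.44 with a pseudocount of 10. Sult2a5 had at most 10.5 reads and a log2 fold change of -1.39 (95% interval -3.22 to 0.44).

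Sult3a1, an amine sulfotransferase, had values of 364 to 1317 in saline livers (median 604) and 1 to 925 in LNA29 livers (median 308). LNA29 replicate 48 had no reads, replicates 50 and 52 were also below all saline livers, and replicate 44 was among the high saline livers. The log2 fold change was -2.03 (SE 1.02, unadjusted limma p = 0.0627, adjusted p = 0.661, exact permutation p = 0.0649), and it was -0.77 without LNA29 replicate 48 (limma adjusted p = 0.605, range over the alternatives 0.35 to 0.812). Sult5a1 had values of 130 to 431 in saline livers (median 305) and 75.5 to 312.5 in LNA29 livers (median 178), with 5 LNA29 livers below the saline median and a log2 fold change of -0.68 (SE 0.35, unadjusted limma p = 0.0699, adjusted p = 0.682, exact permutation p = 0.0996).

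**Figure D5:**
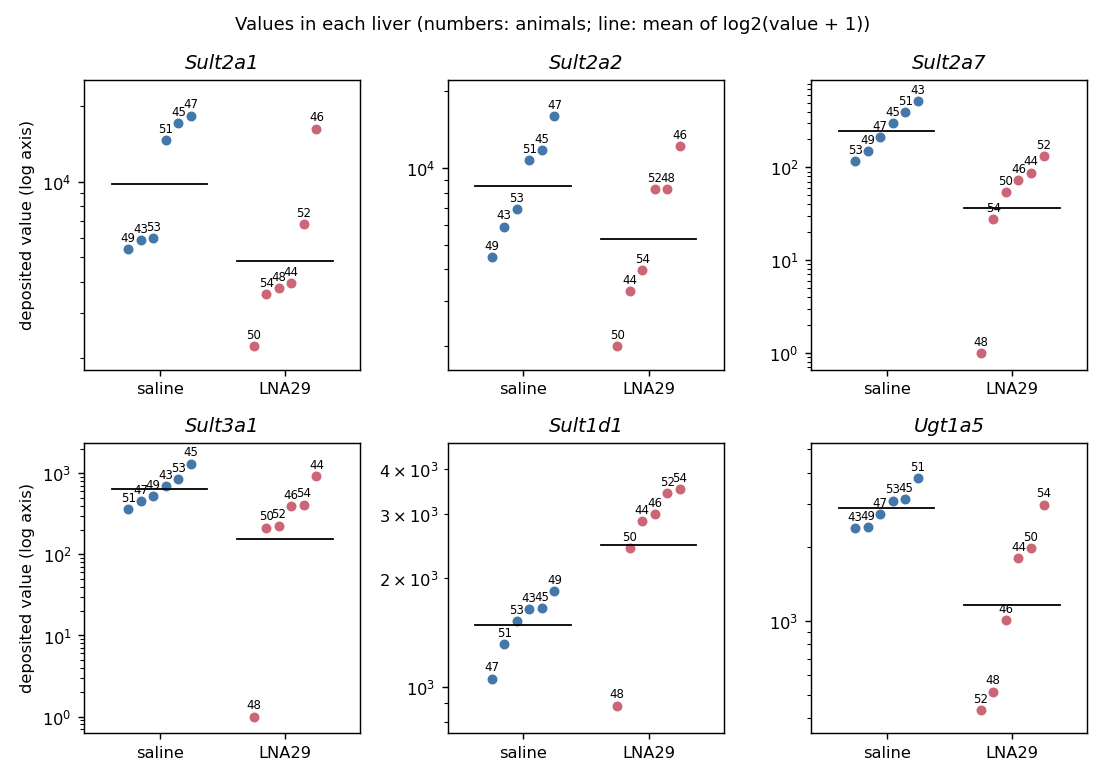
Deposited values (log axes, a separate scale for each gene) of Sult2a1, Sult2a2, Sult2a7, Sult3a1, Sult1d1 and Ugt1a5 in each liver, labelled by animal, with the group mean of log2(value + 1) as a line. LNA29 replicate 48 is listed at 1 for Sult2a7 and Sult3a1 and is the lowest liver for Sult1d1 at 887, while the other 5 LNA29 livers have Sult1d1 between 2411 and 3521.

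Genes for donor supply, for deconjugation, for export and uptake of conjugates, and regulators were counted from lists of known function. Of 31 such genes in the table, 30 were tested, none had an adjusted p under 0.05, none was higher and 2 were lower at an unadjusted p under 0.05 (6.67%, with 5.97% of all genes lower), with a median log2 fold change of -0.17. The count was 5 without saline replicate 47 and 4 without LNA29 replicate 44 or 54. Of all tested genes, 6.45%, 7.33% and 6.47% were lower in these fits, and 1.88%, 1.84% and 1.61% higher. Nr1i3, the nuclear receptor CAR that induces Ugt1a1 and Sult2a genes, had values of 5958 to 8585 in saline livers (median 7185) and 4181 to 7697 in LNA29 livers (median 5113), with 5 LNA29 livers below all saline livers and a log2 fold change of -0.45 (SE 0.15, unadjusted limma p = 0.00748, adjusted p = 0.347, exact permutation p = 0.0152). Arsb, the lysosomal arylsulfatase B, had values of 559 to 873 in saline livers (median 669) and 283 to 612.5 in LNA29 livers (median 418), also with 5 LNA29 livers below all saline livers, and a log2 fold change of -0.72 (SE 0.21, unadjusted limma p = 0.00269, adjusted p = 0.237, exact permutation p = 0.00433).

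Neither donor pathway held a gene with an unadjusted p under 0.05. All 4 genes for UDP-glucuronic acid supply were tested, and Ugdh, which makes UDP-glucuronic acid, had values of 707 to 1547 in saline livers (median 1269) and 714 to 1262.5 in LNA29 livers (median 816) and a log2 fold change of -0.43 (SE 0.21, unadjusted limma p = 0.0511, adjusted p = 0.631, exact permutation p = 0.0823). Of 8 genes for PAPS supply 7 were tested, and Papss2, the main PAPS synthase of liver, had values of 2737 to 17360 in saline livers (median 6455) and 2453 to 10950 in LNA29 livers (median 4910.5) and a log2 fold change of -0.45 (95% interval -1.32 to 0.42, limma adjusted p = 0.863). None of the 5 genes for export and uptake of conjugates had an unadjusted p under 0.05, and the bilirubin glucuronide exporter Abcc2 had a log2 fold change of -0.43 (95% interval -0.96 to 0.10, limma adjusted p = 0.729). Among the 10 regulators, the xenobiotic receptor PXR (Nr1i2) had a log2 fold change of 0.09 (95% interval -0.32 to 0.50, limma adjusted p = 0.951) and the growth hormone mediator Stat5b 0.18 (95% interval -0.22 to 0.59, limma adjusted p = 0.878). The aryl hydrocarbon receptor Ahr had a log2 fold change of -0.05 (95% interval -1.01 to 0.90, limma adjusted p = 0.988). Its values were spread widely, 158 to 800 in saline livers (median 230) and 75.5 to 487.5 in LNA29 livers (median 349). Of the LNA29 livers, 4 were above the saline median and 1 was below all saline livers, so this fold change does not show that Ahr was unchanged.

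Markers of other liver cells overlapped between the groups in their summed levels. The 5 Kupffer cell markers summed to 6062.5 to 8772 in saline and 5125 to 13192 in LNA29 livers, and Marco was the 1 marker of 5 with an unadjusted p under 0.05, at a log2 fold change of 1.08 (SE 0.37, unadjusted limma p = 0.00972, adjusted p = 0.391, exact permutation p = 0.0368). The other Kupffer cell markers went the other way: Cd5l, Clec4f, Emr1 and Vsig4 had log2 fold changes of -0.13, -0.19, -0.46 and -0.52. The 6 stellate cell markers summed to 2912 to 3770 and 2358 to 4014, and Hgf, at few reads, was the 1 of 6 with an unadjusted p under 0.05, at a log2 fold change of -2.32 (SE 1.03, unadjusted limma p = 0.0377, adjusted p = 0.594, exact permutation p = 0.0281). Of 5 sinusoidal endothelial, 5 bile duct and 4 blood markers none had an unadjusted p under 0.05, with sums of 3825 to 4600 and 3293 to 4384, of 603 to 891 and 415 to 868, and of 36101 to 153198 and 36906 to 169973. The 6 hepatocyte markers, none of which had an unadjusted p under 0.05, had their lowest sum in saline replicate 49, the liver with the lowest albumin share. The part of these cells in the results above was not tested.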

How the data were processed

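Polyadenylated liver RNA of 12 mice gave single reads. The authors used MapSplice2 for mapping and RSEM for the reads per gene, and the labels' processing notes name the build mm9. The deposited table holds a signal value per gene and liver, scaled by the authors to an upper quartile of 1000, with 1 for a gene without reads. Between 91.9% and 93.6% of the values above 1 were whole multiples (within 0.02) of the worth of 1 read. Another 6 numeric columns (group means, fold change, p and 2 without a name) were not used.

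Genes with a mean of at least 10 were tested with limma 3.58.1 (R 4.3.3, trend, log2(value + 1), Benjamini-Hochberg adjustment, threshold 0.05) and single values by exact permutation (two-sided) of the group labels over 924 divisions, whose smallest p is 0.00216. Python 3.11.15 with numpy, scipy and pandas was used for the rest. The scripts were tested on simulated data. P-values measure the spread between animals.

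The members and lists were chosen with earlier results of these data known. Values are given per liver for members with a mean of at least 100 and an unadjusted limma p under 0.05, for the 10 with the highest group mean and for the 5 with the largest fold change in each direction at that mean, 16 in all. Pathway genes with p under 0.05 are named, and a few others were named after their values were seen. Transcripts, lengths and positions come from GENCODE M21 (GRCm38), which is not the build of the authors. Alternatives were other pseudocounts, filters, scalings, weights, a robust fit, discarded values, a length covariate, the thresholds of the study and each liver left out.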

Additional observations from a re-analysis of the deposited data

Results flagged for a closer look

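Each group of 6 livers was tested for a liver far from the others on the log2(value + 1) scale (Dixon's test at 95%), over the 44 groups of the 22 members with a mean of at least 100. Chance flags about 1 in 20 such groups, or 2.2 of 44, and 4 were found, all of them LNA29 replicate 48 as the lowest of its group. Sult1d1 was 887 there and 2411 to 3521 in the other LNA29 livers. Sult2a7 was listed at 1 there and at 27.4 to 132 in the others. Sult3a1 was listed at 1 there and at 214 to 925 in the others. Ugt1a1 was 16462 there and 33898 to 44146 in the others.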

How the results depend on the processing

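The adjusted count of members, 0 in the fit reported, was 1 (Sult1d1) with array weights and with values beyond 1.5 SD left out, and 0 to 1 when single livers were left out. The count at an unadjusted p under 0.05, higher, was 2 with array weights and 2 with values beyond 1.5 SD left out (1 to 3 without single livers). Of all tested genes, 2.88% and 5.29% were higher in these settings, 1.95% in the fit reported and 1.61% to 2.31% without single livers. The lower count was 10 with array weights, 7 with values beyond 1.5 SD left out and 7 with the length covariate (2 to 8 without single livers), and the share of all tested genes that were lower was larger too, from 5.97% to 7.90%, 11.5% and 9.01%. The count of pathway genes, in either direction, was 8 with values left out and 8 with the length covariate (2 to 5 without single livers). Of all tested genes, 5.29% were higher and 11.5% lower with values left out, and 3.26% and 9.01% with the length covariate. Without single livers, 4.76% to 7.33% of all tested genes were lower. The thresholds of the study kept 883 of 15122 genes (5.84%), among them Sult1d1 higher and Sult2a7, Sult5a1 and Ugt1a5 lower. The median fold change of the tested members moved from -0.335 to between -0.509 and -0.22, less than the spread between livers in every setting. Over all genes, the adjusted count of 20 ranged from 1 (without saline replicate 43, LNA29 replicate 50 or LNA29 replicate 54) to 217 with values left out. It was 3 without saline replicate 51, 7 without saline replicate 53, 9 without LNA29 replicate 46, 10 with a common median, 58 under array weights and 124 with the length covariate.

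Of the 16 members described in full, 10 kept the sign of the fold change in every setting. Of the 6 exceptions, Sult1a1 was -0.1618 with array weights, -0.2534 with values left out, -0.00023 with the length covariate and -0.1242 to 0.128 without single livers. Ugt1a6a was -0.1124 with values left out and -0.279 to 0.53 without single livers, and Ugt1a9 was -0.0558 with values left out. Ugt2b36 was 0.00152 with a common median, 0.0143 with TMM factors, 0.0333 with values left out and -0.117 to 0.0333 without single livers. Ugt2b5 was 0.00112, 0.0139 and -0.129 to 0.026, and Ugt3a2 0.035, 0.0477, 0.00326 with array weights and -0.103 to 0.0863. The causes were not tested. Count tests with edgeR and DESeq2 were not run because too few values were whole reads. No paired analysis was possible because the groups share no replicate numbers. Depth limits the members with few reads, whose fold changes depend on the pseudocount.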

Other observations

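The deposited table also holds 3 genes of these families under older symbols, which the choice by symbol left out. 2810007J24Rik, which RefSeq names Sult2a8, had values of 1889 to 4641 in saline livers (median 2568) and 1036 to 2250 in LNA29 livers (median 1656), with 4 LNA29 livers below all saline livers. Its log2 fold change was -0.80 (SE 0.22, unadjusted limma p = 0.00232, adjusted p = 0.232, exact permutation p = 0.0108). Gm4794, named Sult3a2 by RefSeq, had at most 13 reads and none in 1 saline and 1 LNA29 liver. Its log2 fold change was above 0, at 0.66 (SE 1.11, unadjusted limma p = 0.562, adjusted p = 0.933, exact permutation p = 0.619). Gm766, named Sult6b2, had no reads in any liver. These 3 genes were looked up after the values of the members were seen.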
